A study of Mus musculus with 3 samples.

Results

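The antimicrobial proteins of skin were followed through 10 genes taken by name: the beta-defensins Defb1, Defb3, Defb6 and Defb14, the S100 proteins S100a7a, S100a8 and S100a9, the protease inhibitor Slpi, the lysozyme Lyz2 and the cathelicidin Camp. All 10 were found among the 32285 genes of the count matrices, and 27401 of those genes had at least 1 unique molecular identifier (UMI, the tag of 1 captured transcript) in the cells kept. Each gene was described in keratinocytes, in neutrophils and in the other cells that carried it, and across the 3 libraries of the study.

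Dorsal skin of wild-type C57BL/6J mice, labelled as female and with an age of 8 weeks, was dissociated. It was sequenced cell by cell with a droplet-based 3′ assay, 1 library per condition. CON was the control group. UV mice received UVA at 0.60 mW/cm2 together with UVB at 3.5 mW/cm2 on alternate days over 12 weeks, and skin was taken 24 h after the last exposure. Rux mice were irradiated in the same way. An ointment with 1.5% ruxolitinib, an inhibitor of the kinases JAK1 and JAK2, was put on their skin after each irradiation. The label of 8 weeks cannot be the age at sampling in UV and Rux, because the exposure alone lasted 12 weeks. Whether it is the age at sampling in CON is not stated. The study describes the CON and UV mice as given the ointment vehicle without the drug, which the labels of these libraries do not name, and the number of mice behind a library is not stated.

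Antimicrobial proteins kill or starve microbes at body surfaces. Beta-defensins are small cationic peptides of epithelia that disrupt microbial membranes. S100a8 and S100a9 form calprotectin, which binds zinc and manganese and fills the cytosol of neutrophils, while S100a7a is a mouse relative of the human skin protein psoriasin. Slpi blocks neutrophil serine proteases and also acts on bacteria, Lyz2 cuts bacterial cell walls in myeloid cells, and Camp encodes the precursor of the peptide CRAMP of neutrophil granules.

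The genes lie in 2 neighbourhoods and 3 single sites of GRCm38. Defb14 (chr8:19194357-19195212), Defb6 (chr8:19225478-19228209) and Defb3 (chr8:19293360-19295291) follow each other on the plus strand, with 30.3 kb between the first pair and 65.2 kb between the second, and Defb1 (chr8:21776599-21795185, plus strand) lies 2481.3 kb beyond Defb3. S100a7a (chr3:90654017-90658669, plus strand) lies 10.3 kb before S100a8 (chr3:90668978-90670035, plus strand), and S100a9 (chr3:90692632-90695721, minus strand) begins 22.6 kb further on. Slpi is at chr2:164354070-164389095, Camp at chr9:109847379-109849617 and Lyz2 at chr10:117277331-117282321, all on the minus strand.

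RefSeq start windows of GRCm38.p6 were at hand for 8 of the 10 genes, Defb1 and Defb14 being the others, and the 250 bases before the transcript start are shown for 5 of them, 5′ to 3′ on the strand of the gene. S100a8 (chr3:90668821-90669070, plus strand) and S100a9 (chr3:90695722-90695971, minus strand) are shown because they went together in neutrophils and apart in melanocytes. Defb6 (chr8:19225228-19225477, plus strand) and Defb3 (chr8:19293111-19293360, plus strand) are shown as neighbours with very unequal UMI totals. Slpi (chr2:164356508-164356757, minus strand) is shown as a gene shared by keratinocytes, neutrophils and other myeloid cells. The Slpi window lies inside the annotated span of the gene, because RefSeq starts this transcript there.
S100a8: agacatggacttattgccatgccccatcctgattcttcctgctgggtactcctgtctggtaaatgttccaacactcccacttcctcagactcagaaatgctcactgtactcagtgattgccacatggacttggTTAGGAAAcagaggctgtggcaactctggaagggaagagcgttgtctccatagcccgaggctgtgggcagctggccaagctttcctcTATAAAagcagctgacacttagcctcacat
S100a9: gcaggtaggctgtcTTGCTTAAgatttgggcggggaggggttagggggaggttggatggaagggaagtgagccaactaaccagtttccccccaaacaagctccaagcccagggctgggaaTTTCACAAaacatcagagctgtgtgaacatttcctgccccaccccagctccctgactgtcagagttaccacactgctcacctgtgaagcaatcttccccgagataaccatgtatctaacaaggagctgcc
Defb6: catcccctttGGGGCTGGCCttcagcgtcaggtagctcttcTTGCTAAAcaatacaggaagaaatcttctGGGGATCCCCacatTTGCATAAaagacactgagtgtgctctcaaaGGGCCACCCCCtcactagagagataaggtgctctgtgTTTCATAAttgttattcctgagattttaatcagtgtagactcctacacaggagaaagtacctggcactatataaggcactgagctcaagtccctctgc
Defb3: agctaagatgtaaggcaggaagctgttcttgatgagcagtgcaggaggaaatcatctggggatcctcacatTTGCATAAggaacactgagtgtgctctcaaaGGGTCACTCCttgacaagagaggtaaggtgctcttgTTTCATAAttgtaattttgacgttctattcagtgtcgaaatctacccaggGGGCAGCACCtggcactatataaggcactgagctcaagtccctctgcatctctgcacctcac
Slpi: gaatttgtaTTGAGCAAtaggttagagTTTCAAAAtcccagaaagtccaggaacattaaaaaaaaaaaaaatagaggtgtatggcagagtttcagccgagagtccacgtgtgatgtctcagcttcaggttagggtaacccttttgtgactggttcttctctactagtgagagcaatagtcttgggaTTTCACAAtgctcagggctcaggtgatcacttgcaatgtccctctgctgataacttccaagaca

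Capitals in these windows mark each match, on either strand, to a TATA box (TATAAA), a C/EBP site (TTNNGNAA), an AP-1 site (TGANTCA), a STAT site (TTCNNNGAA), the M-box of pigment cells (TCATGTG) or an NF-kB site (GGG and CC with any 5 bases between them), with overlaps allowed. S100a8 held a TATA box at −30 to −25 and a C/EBP match at −117 to −110, counted from the transcript start, and S100a9 held C/EBP matches at −236 to −229 and −130 to −123. Slpi held 3 C/EBP matches. The windows of Defb6 and Defb3 were identical at 198 of 243 aligned columns (81.5%), against 82 of 138 (59.4%) for S100a8 and S100a9. A C/EBP match was found in 6 of the 8 windows and an NF-kB match in 3, beside 36.8% and 45.8% of all 32851 RefSeq windows of the same length. The letters TATAAA were matched in 1 window (12.4% of all) and the STAT site in 1, that of S100a7a (7.02%). The AP-1 site and the M-box were matched in none (6.75% and 3.25%). Other forms of the TATA box, such as tatataag in the Defb6 and Defb3 windows, were not searched. These matches are a description of letters and not of binding.

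The matrices held 11287 to 13170 barcodes and 131570327 to 165337289 UMIs per library, and 9386 to 10885 cells per library were kept, with a median of 7540 to 9437 UMIs. All 3 libraries went against the label of female mice, since the female transcript Xist had 13 to 14 UMIs in each while the Y-linked genes Ddx3y, Eif2s3y, Kdm5d and Uty had 1386 to 15666. Between 28 and 50 barcode sequences were shared by any pair of libraries, and the counts of members given for keratinocytes and neutrophils were the same without those cells. Clusters were named from markers that include none of the 10 genes. Among the classes were KER-like (keratinocytes), NEU-like (neutrophils), MYE-like (macrophages and dendritic cells), MEL-like (melanocytes) and FB-like (fibroblasts). The sum of 13 keratinocyte markers was 13096 to 17872 CPM in KER-like cells, against 310 to 709 in FB-like cells. CPM, the UMIs of a gene scaled by all UMIs of its class in the library, is the scale of all levels, and since a 3′ assay counts transcript ends it does not grow with gene length. Cells of 1 library are not replicates, so differences have no replicate check and no test was made, and the 95% intervals, exact Poisson for levels, exact conditional binomial for log2 ratios and Clopper-Pearson for shares, cover counting error only.

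KER-like cells were 3770 in CON, 2043 in UV and 1631 in Rux, with 42612852 to 90102977 UMIs per library. Different clusters made up the class: cluster 12 (Krt1, Krt10, Krt77) was the largest in CON with 722 cells against 27 in UV and 95 in Rux, while cluster 7 (dividing, Hist1h1b and Krt25) was the largest in UV and Rux with 405 and 210 cells. NEU-like cells formed cluster 30, led by Retnlg, Acod1, Il1b and Wfdc17. They were 50 of the CON cells (0.459%, 0.341 to 0.605), 22 of the UV cells (0.213%, 0.134 to 0.322) and 227 of the Rux cells (2.42%, 2.12 to 2.75), and carried 128247, 44232 and 765355 UMIs. In sums over a whole library more cells of a type and more RNA per cell cannot be told apart.

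Most of the genes fell into an epithelial or a myeloid set. KER-like cells held 96.5% of the 6025 UMIs of Defb1, 95.4% of the 105378 of Defb6, 94.3% of the 87 of Defb3, 93.3% of the 330 of Defb14 and 72.3% of the 441 of S100a7a. NEU-like cells, although only 299 in all, held 90.6% of the 30392 UMIs of S100a8 and 96.1% of the 51557 of S100a9. MYE-like cells held 95.3% of the 50740 UMIs of Lyz2. Slpi was shared, with 68.9% of its 40190 UMIs in KER-like, 12.8% in MYE-like and 12.7% in NEU-like cells. Camp belonged to neither set: FB-like cells held 57.1% of its UMIs and KER-like cells 26.5%, cluster 2 alone held 35.8%, and NEU-like cells held 1 UMI.

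**Figure D1:**
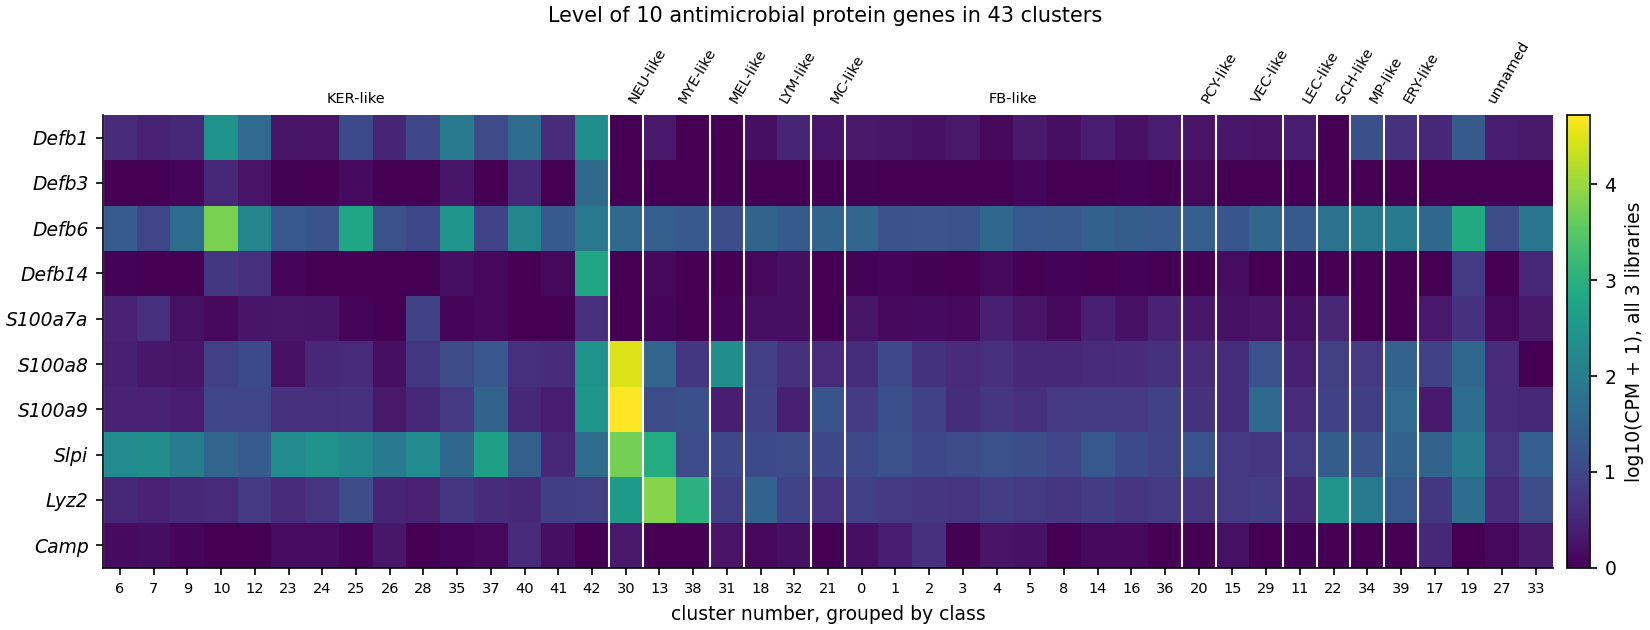
Level of the 10 genes in each of the 43 clusters with the 3 libraries summed, as log10(CPM + 1) by colour, with clusters on the horizontal axis grouped by class. Defb6 peaks in cluster 10, Defb14 in cluster 42, S100a8 and S100a9 in the NEU-like cluster 30, Lyz2 in the MYE-like cluster 13, and S100a8 without S100a9 is seen in the MEL-like cluster 31.

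Between libraries the members were read against a 2-fold difference among genes with at least 20 UMIs in the 2 libraries together. In KER-like cells UV over CON, all 10 members reached this minimum. Slpi was at least 2-fold higher (1 of 10, beside 9.26% of 18653 genes), and Defb3 and Defb14 were at least 2-fold lower (2 of 10, beside 3.62%). In KER-like cells Rux over UV, Defb3, Defb14, S100a8 and S100a9 were at least 2-fold higher (4 of 10, beside 2.69% of 17904 genes), and Camp was lower (1 of 10, beside 5.23%). Both comparisons use the same UV library, so a low value in UV enters both. The median log2 ratio of the genes tested was 0.00 in the first and −0.05 in the second.

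In NEU-like cells 4 members reached the minimum in UV over CON. Slpi was at least 2-fold higher (1 of 4, beside 6.53% of 1363 genes) and none was lower (beside 10.9%). In Rux over UV, 5 members reached it and none was 2-fold apart, beside 15.5% of 3617 genes higher and 14.7% lower. The UV side of both rests on 22 cells, and the intervals of NEU-like cells are wide for all but S100a8, S100a9 and Slpi.

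**Figure D2:**
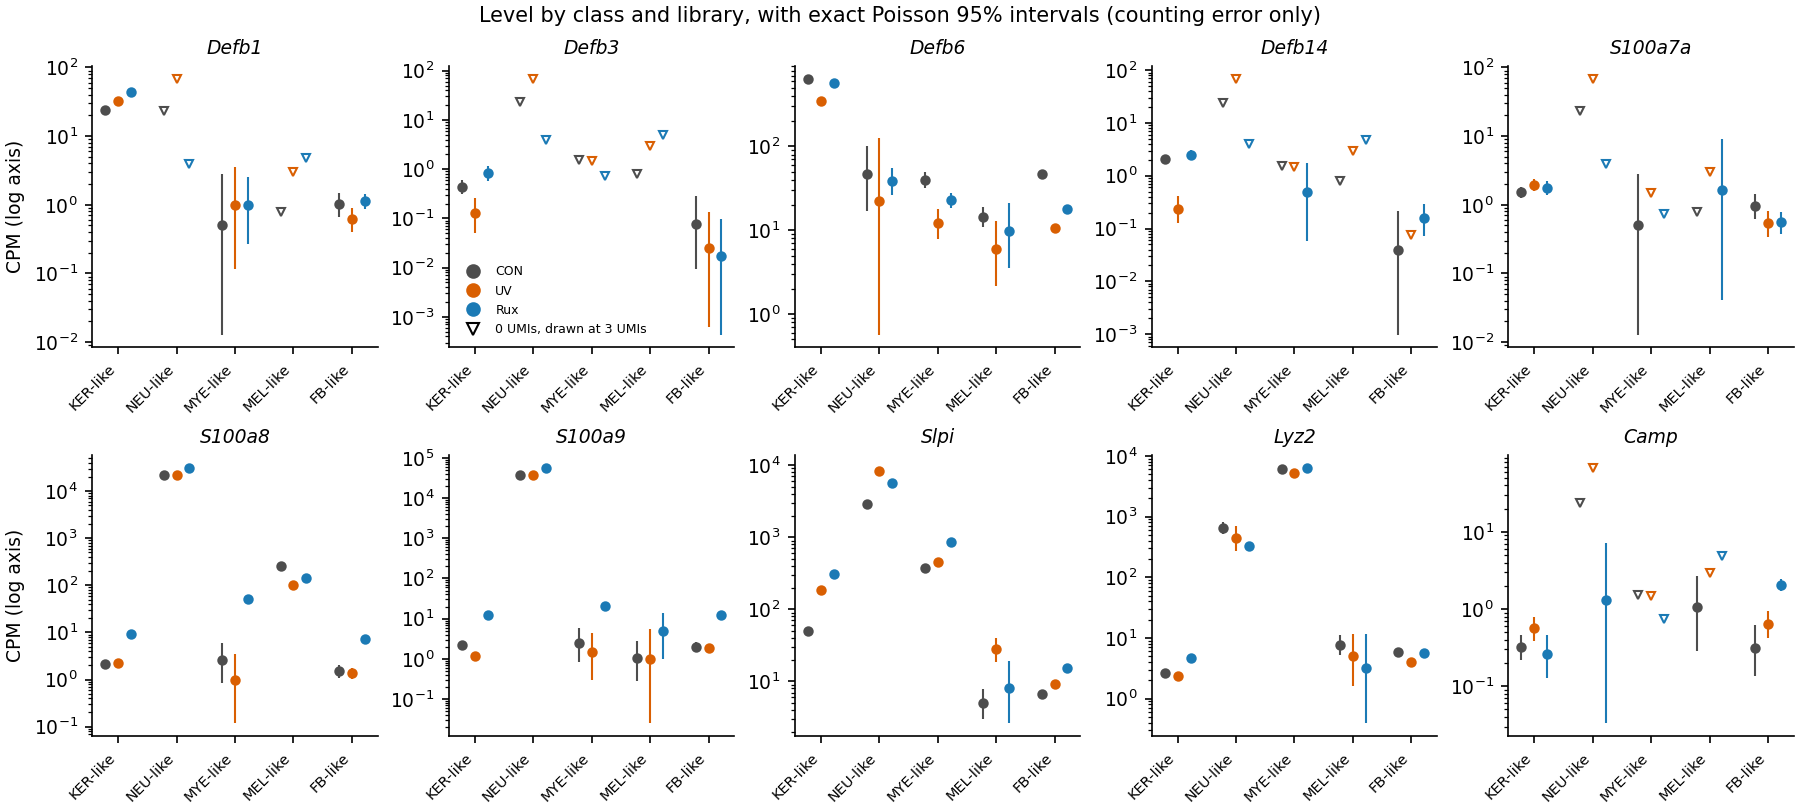
Level (CPM, log axis) of each gene in 5 classes and 3 libraries, with exact Poisson 95% intervals for counting error as bars and open triangles at the level of 3 UMIs where no UMI was counted. Slpi in KER-like cells steps from 49.3 to 186 and 306 CPM from CON to UV and Rux, while S100a8 and S100a9 are highest in NEU-like cells of every library.

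Defb6 was by far the most abundant of the defensins by UMIs. Its level in KER-like cells was 632 CPM in CON, 353 in UV and 569 in Rux, a log2 ratio of −0.84 (−0.86 to −0.82) for UV over CON and 0.69 (0.66 to 0.72) for Rux over UV. UV was the low library and neither ratio reached 2-fold. Cluster 10, led by the cystatin Cst6, the follicle keratin Krt79 and the suprabasal gene Krtdap, held 85.3% of all Defb6 UMIs, and its marker scores for upper follicle and suprabasal keratinocytes were nearly equal. There Defb6 was at 7336, 4165 and 5444 CPM in CON, UV and Rux, so the order of the libraries was the same, at log2 −0.82 (−0.84 to −0.79) and 0.39 (0.36 to 0.41). After each cell was thinned to 2000 UMIs, 77.2% of CON, 53.9% of UV and 61.9% of Rux cells of cluster 10 still had a Defb6 UMI, against 86.3%, 71.4% and 79.8% before thinning.

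Outside cluster 10 the levels of Defb6 have to be read beside free RNA. FB-like cells, which should lack the gene, had 46.7 CPM in CON, 10.8 in UV and 17.9 in Rux, with 22.5%, 6.82% and 16.3% of cells holding a UMI at a median depth of 5715 to 9468 UMIs. Clusters 6, 7, 23, 26 and 28 are hair follicle and dividing keratinocytes. They lay below the FB-like level of the same library, at 12.8 to 38.8 CPM in CON and 4.08 to 9.47 in UV. Their cells were deeper, however, with medians of 16778 to 32545 UMIs in CON, and 26.6% to 41.9% of CON cells had a UMI. By CPM alone free RNA and expression cannot be told apart there, and the source of these UMIs was not tested. Cluster 12 had 175 CPM in CON but 8.35 in UV and 14.1 in Rux, below FB-like cells in the last 2. There 18.5% of UV and 27.4% of Rux cells had a UMI. Cluster 35, a dividing cluster led by Cstdc5 and Krt14, had 487, 294 and 176 CPM. Cluster 25, led by Krt6a, Pthlh and Nrg1, had 2006, 156 and 234 CPM, but 1 of its 56 CON cells gave 1392 of the 2363 UMIs there. Without cluster 10 the log2 ratio of UV over CON in KER-like cells was −1.36, past the 2-fold line. That sum includes this single cell, cluster 12 with 722 CON and 27 UV cells, and the clusters below the FB-like level. The part of each in the ratio was not tested.

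Defb1, a defensin known for steady expression in epithelia, differed the other way. It had 24, 32.8 and 43.3 CPM in KER-like cells of CON, UV and Rux, log2 0.45 (0.36 to 0.54) and 0.40 (0.31 to 0.50), so no step reached 2-fold. Cluster 10 held 64.6% of its UMIs and had 206, 292 and 304 CPM, and cluster 12 had 37.5, 69.2 and 66.9 CPM. UV thus stood above CON in both clusters, while Rux and UV did not differ beyond counting error in cluster 10 (log2 0.06, −0.05 to 0.18). In cluster 12 the 27 UV cells gave only 58 UMIs, 23 of them from 1 cell. Without the highest cell of each library it had 33.6, 44.0 and 60.2 CPM, and log2 of UV over CON was 0.41, from 35 UV UMIs. FB-like cells had 0.617 to 1.12 CPM, well under these levels. Over all KER-like cells thinned to equal depth, Defb6 was detected in 57.6% of cells with a Defb1 UMI and in 10.9% of those without.

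Defb14, the mouse relative of human beta-defensin 3, was tied to the outermost keratinocytes. Cluster 42, of 54 cells led by the cornified envelope genes Lor, Lce1m and Crct1, held 51.8% of its UMIs. Its cells there gave 122 UMIs in CON (815 CPM, 677 to 973), 2 in UV (26.5 CPM, 3.21 to 95.8) and 47 in Rux (736 CPM, 541 to 979), from 9 of 17, 2 of 16 and 6 of 21 cells. CON and Rux lay side by side and UV lay below both. In cluster 10 the levels were 6.51, 1.65 and 5.05 CPM, in the same order. Summed over KER-like cells, 189, 13 and 106 UMIs gave 2.10, 0.237 and 2.49 CPM, log2 −3.10 (−4.08 to −2.34) and 3.35 (2.56 to 4.35). Single cells weighed heavily: 1 CON cell gave 43 of the UMIs and 1 Rux cell of cluster 12 gave 34. Without the 3 highest cells of each library the levels were 1.17, 0.110 and 0.893 CPM, and FB-like cells had 0 to 0.156.

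Defb3, an inducible defensin, was sparse, with 40, 7 and 35 UMIs in KER-like cells of CON, UV and Rux. Its levels were 0.444 CPM (0.317 to 0.605), 0.127 (0.0512 to 0.263) and 0.821 (0.572 to 1.14). The interval of UV lay below those of the other libraries, with log2 ratios of −1.72 (−3.20 to −0.63) and 2.61 (1.50 to 4.10). In cluster 10 the counts were 16, 3 and 20 UMIs. All 11 Rux UMIs of cluster 42 came from 1 cell, and with the cluster mix of CON applied to every library the first ratio was −0.68, inside 2-fold. Against the 105378 UMIs of its neighbour Defb6, whose upstream window is 81.5% identical, Defb3 had 87 in all cells.

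**Figure D3:**
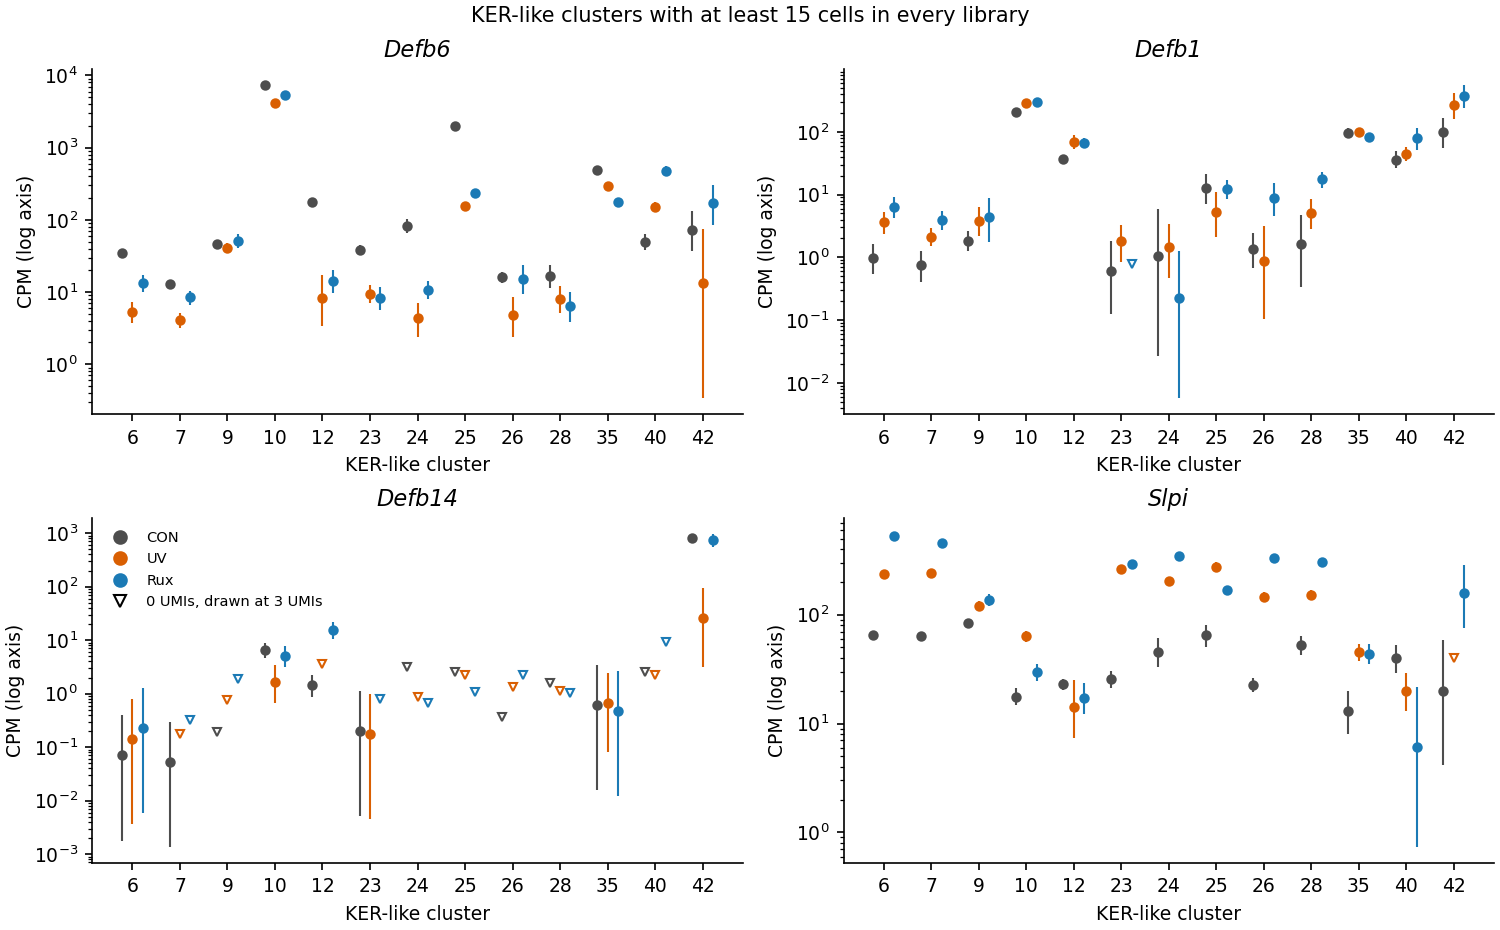
Levels (CPM, log axis) of Defb6, Defb1, Defb14 and Slpi in the 13 KER-like clusters with at least 15 cells in every library, with exact Poisson 95% intervals for counting error and open triangles at 3 UMIs where no UMI was counted. Slpi in UV lies above CON in most clusters but not in 12, 40 and 42, where 1 CON cell gave 225 of the 288 UMIs of cluster 12, and Defb6 and Defb1 share cluster 10 as their highest large cluster.

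S100a8 and S100a9 were the most abundant members in neutrophils. S100a8 had 22433, 22201 and 30928 CPM in NEU-like cells of CON, UV and Rux, and S100a9 had 38122, 37507 and 56170. UV and CON did not differ beyond counting error, with log2 ratios of −0.01 (−0.12 to 0.09) and −0.02 (−0.10 to 0.06). Rux stood above UV by 0.48 (0.39 to 0.57) and 0.58 (0.51 to 0.65), within 2-fold. Of the UMIs of the pair, S100a8 took 37.0% (36.0 to 38.1), 37.2% (35.3 to 39.1) and 35.5% (35.1 to 35.9), and 294 of the 299 cells had both. Over all cells kept, S100a8 had 29.5, 11.2 and 213 CPM and S100a9 37.3, 15.4 and 381, an order that the share of NEU-like cells (0.459%, 0.213% and 2.42%) also had.

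In keratinocytes the pair is known as a marker of stress and inflammation. KER-like cells had 2.09, 2.22 and 9.22 CPM of S100a8 and 2.21, 1.17 and 12.6 CPM of S100a9, so Rux stood above UV by log2 2.05 (1.76 to 2.36) and 3.43 (3.06 to 3.84). FB-like cells of the same libraries had 1.52, 1.36 and 7.40 CPM of S100a8 and 1.98, 1.87 and 12.1 CPM of S100a9. At equal depth 1.31% of KER-like and 1.20% of FB-like cells of Rux had S100a8, and 2.25% and 2.21% had S100a9. These shares were close in both classes, and the source of the UMIs in KER-like cells was not tested. Of its 393 S100a8 UMIs, 117 and 62 came from single cells of clusters 12 and 37, and without the 3 highest cells per library the levels were 1.22, 1.40 and 4.46 CPM. The sum of 9 neutrophil markers in KER-like cells was 64.2, 53.9 and 65.9 CPM, all 9 with UMIs. In FB-like cells this sum was 183, 217 and 170 CPM, highest in UV, where the share of NEU-like cells was lowest. It thus did not follow the share of neutrophils, and no source of RNA is read from it here or in other classes.

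Cluster 42, the cornified cells, stood out among KER-like clusters. S100a8 had 0 UMIs in its 17 CON cells, where a count of 0 allows up to 17.6% of cells with a UMI by the limit of 3 counts,, 44 in 16 UV cells (583 CPM, 424 to 783) and 33 in 21 Rux cells (517 CPM, 356 to 726). S100a9 had 1, 25 and 57 UMIs, which is 6.68, 331 and 893 CPM. Both UV and Rux were above CON, and both were far above FB-like cells. Few cells carried these UMIs. For S100a8 they came from 5 of 16 UV cells, with 18 and 15 in the highest pair, and from 5 of 21 Rux cells, with 24 in the highest. For S100a9 the highest UV cell had 11 and the highest Rux cell 28. Without the highest cell of each library S100a8 was at 0, 402 and 144 CPM and S100a9 at 0, 228 and 463. Defb14 in this cluster was low in UV, with 2 UMIs.

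Melanocytes carried S100a8 without its partner. MEL-like cells, cluster 31 led by Dct and Pmel, had 970 UMIs of S100a8 in 145 CON cells (258 CPM, 242 to 274), 102 in 61 UV cells (101 CPM, 82.2 to 122) and 89 in 34 Rux cells (144 CPM, 115 to 177). S100a9 had 4, 1 and 3 UMIs there. S100a8 thus made up 99.3% (98.7 to 99.7) of the pair, against 35.7% (35.4 to 36.1) in NEU-like cells. CON was the highest library (log2 of UV over CON −1.35, −1.66 to −1.06), and 82.8%, 50.8% and 44.1% of cells had a UMI, at median depths of 20412, 10537 and 11755. In Rux 35 and 22 of the 89 UMIs came from 2 cells, and without the 3 highest cells of each library the levels were 237, 72.7 and 51.5 CPM, so the order of UV and Rux turned while CON remained the highest. At equal depth the shares were 30.8%, 16.9% and 11.8%. Of 9 neutrophil markers, 7 had UMIs in MEL-like cells, while Csf3r and Retnlg were at 0. The sum was 52.3, 45.4 and 64.6 CPM, beside 183, 217 and 170 in FB-like cells. No source of the S100a8 UMIs is read from it, and their source was not tested.

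**Figure D4:**
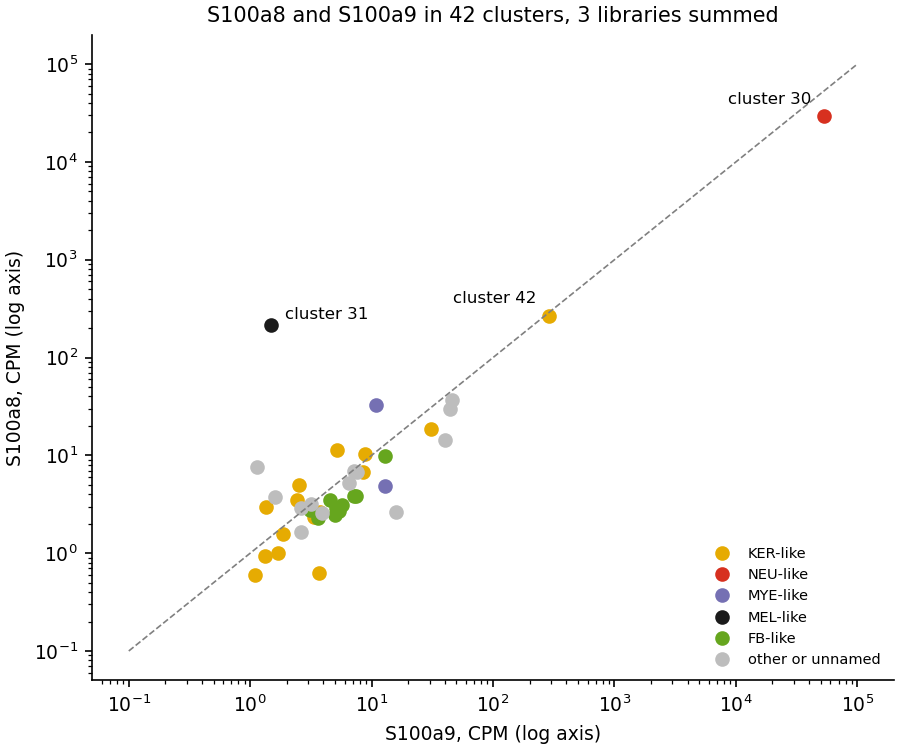
S100a8 against S100a9 (CPM, log axes, 3 libraries summed) in the 42 clusters with UMIs of both genes, with the dashed line at equal levels and colours for the class. The NEU-like cluster 30 lies at the top right just under the line, the KER-like cluster 42 on the line, and the MEL-like cluster 31 far above it.

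MYE-like cells differed from both. S100a8 had 5, 2 and 208 UMIs (2.55, 0.977 and 50.9 CPM) and S100a9 had 5, 3 and 84 (2.55, 1.47 and 20.5 CPM), so both were high in Rux alone. There S100a8 made up 71.2% (65.7 to 76.4) of the pair, unlike the 35.5% of NEU-like and the 38% (35.1 to 40.9) of FB-like cells of that library. The S100a8 UMIs came from 91 of 457 cells, with at most 13 in a cell. The neutrophil markers summed to 437, 408 and 584 CPM in MYE-like cells, and their part in the difference was not tested.

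S100a7a was low in every class. KER-like cells had 1.51, 1.95 and 1.78 CPM with intervals of the log2 ratios that held 0, and FB-like cells had 0.543 to 0.973. The clusters with the largest shares of its UMIs were the dividing cluster 7 (35.6%) and cluster 28 (12.2%), which is led by the hair genes S100a3 and Krt35. In cluster 28 it had 6.99 CPM (3.72 to 12.0), 2.57 (1.03 to 5.29) and 11.6 (8.01 to 16.2), so Rux lay above UV. A single CON cell of cluster 7 held 22 of the 136 UMIs of KER-like cells in that library.

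Slpi was the 1 member that was at least 2-fold higher in UV keratinocytes. KER-like cells had 49.3 CPM in CON, 186 in UV and 306 in Rux, log2 1.91 (1.86 to 1.96) and 0.72 (0.68 to 0.76), while FB-like cells had 6.61, 9.22 and 15.4. The share of KER-like cells with a UMI at equal depth was 4.75%, 13.5% and 18.0%. Of the 11 KER-like clusters with at least 20 cells in every library, UV was above CON beyond counting error in 10 and at least 2-fold in 9, from log2 0.53 in cluster 9 (Krt15, Lhx2, stem cell markers of the follicle) to 3.36 in cluster 23 (Krt71, Krt25, keratins of the inner root sheath). Cluster 12 had 23.0, 14.3 and 17.2 CPM (log2 −0.63, −1.65 to 0.14), but 1 CON cell gave 225 of its 288 UMIs there. Without the highest cell of each library, an alternative chosen after seeing the data, cluster 12 had 5.06, 11.9 and 15.2 CPM, and UV over CON was above 0 in all 11 clusters, from 0.41 to 5.17. In Rux over UV the clusters parted: 6 were above UV beyond counting error, 2 were below, and the range was −1.09 in cluster 10 to 1.18 in clusters 6 and 26. The other cluster below UV, cluster 25, was at −0.69, and at −0.01 without the highest cells.

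Slpi and Defb6 were highest in different keratinocytes. Clusters 6 and 7, with inner root sheath and dividing markers, had Defb6 below the FB-like level in CPM. They had 64.9, 236 and 533 CPM and 63.5, 241 and 452 CPM of Slpi. Cluster 37 (Fhod3, Nrg1, Krt15), which had 6 cells in CON, 43 in UV and 141 in Rux, had 370 CPM in UV and 523 in Rux. Cluster 10 had only 17.7, 63.2 and 29.6 CPM. Cluster 25, with Defb6 at 2006, 156 and 234 CPM, had Slpi at 64.5, 272 and 168 CPM. Without the highest cell of each library its Slpi was at 44.3, 142 and 141 CPM. At equal depth Slpi was found in 4.46% of KER-like cells with a Defb6 UMI and in 10.9% of those without, and the direction was the same in each library.

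In neutrophils, where Slpi guards against the cell's own elastase, the levels were 2901 CPM (2613 to 3211) in CON, 8297 (7470 to 9191) in UV and 5727 (5558 to 5899) in Rux. UV was the highest library, with log2 1.52 (1.30 to 1.73) over CON, and Rux lay below UV by −0.54 (−0.69 to −0.38). The highest 3 of the 22 UV cells had 62, 57 and 44 of the 367 UV UMIs, and without the 3 highest cells of each library the levels were 2395, 5586 and 5260 CPM. UV and Rux were then close, and both were above CON. The full levels come from 372, 367 and 4383 UMIs, and 86.0%, 90.9% and 94.3% of cells had at least 1. The marker sum of neutrophils was 17388, 14107 and 19374 CPM in these cells, and that of keratinocytes 1700, 1063 and 873. MYE-like cells had 378, 454 and 850 CPM of Slpi, with 525, 614 and 1037 in cluster 13, which is led by immunoglobulin transcripts and Il1b, and 8.97, 9.25 and 13.4 in cluster 38 (Cd74, H2-Aa, Cd207).

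Lyz2, the myeloid lysozyme, was the most even of the abundant members. MYE-like cells had 5981, 5311 and 6306 CPM in CON, UV and Rux, with log2 ratios of −0.17 (−0.21 to −0.13) and 0.25 (0.22 to 0.28). Cluster 13 had 7689, 6992 and 7529 CPM, and cluster 38 had 1687, 632 and 837, so the libraries were closer in the first than in the second. NEU-like cells had 647, 452 and 329 CPM, from 83, 20 and 252 UMIs, with each step within counting error. Rux over CON, without the 22 UV cells, was lower beyond counting error, at log2 −0.98 (−1.34 to −0.60). The highest CON cells held 24 and 12 of the 83 UMIs, however. Without the 3 highest cells of each library the levels were 361, 278 and 282 CPM. The sum of 9 myeloid markers in NEU-like cells was 663, 497 and 376 CPM, and its part in the difference was not tested. KER-like cells had 2.33 to 4.58 CPM, against 3.95 to 5.88 in FB-like cells. Per cell they had more, at 0.0631, 0.0627 and 0.120 UMIs against 0.0377, 0.0283 and 0.0596. The source of the UMIs in KER-like cells was not tested. The paralog Lyz1 lies 5.5 kb from Lyz2 and had 284, 185 and 52.1 CPM in MYE-like cells. Reads can be shared between such copies, so the split between them is uncertain.

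Camp was close to absent from the neutrophils of this skin. NEU-like cells had 0, 0 and 1 UMI, where a count of 0 allows up to 23.4 CPM in CON and 67.8 in UV. KER-like cells had 29, 31 and 11 UMIs (0.322, 0.564 and 0.258 CPM), and FB-like cells had 8, 26 and 119 (0.311, 0.641 and 2.06 CPM), of which 85 of the Rux UMIs lay in 1 cell of cluster 2. The ratio of Rux over UV in KER-like cells was −1.09 (−2.27 to −0.10) on the log2 scale and rests on 11 against 31 UMIs, at the level of FB-like cells in CON and UV. A single Rux barcode with 137 Camp UMIs was among the NEU-like cells only where doublets were kept or cells were filtered to at least 500 genes and 5% mitochondrial UMIs.

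Over the 43 clusters, those most like each member in Pearson's r of log2(CPM + 1) were sought among 9513 genes. Defb6 went with Skint1 (0.88), Alox12e (0.84) and Skint3 (0.84), and Defb1 with Orm1 (0.90), Tprg (0.84) and Stfa3 (0.83). Defb14 went with the cornified envelope gene Kprp (0.95), 2310050C09Rik (0.95) and Sdr9c7 (0.94). S100a8 went with S100a9 (0.86), the neutrophil chemokine receptor Cxcr2 (0.79) and Csta2 (0.78), S100a9 with Retnlg (0.86), S100a8 (0.86) and Stfa2l1 (0.84), and Slpi with the arginase Arg2 (0.86), the interleukin-1 antagonist Il1rn (0.79) and Gm20528 (0.78). Lyz2 went with Ccl9 (0.88), Cybb (0.88) and Ccl4 (0.87). The likeness was weaker for S100a7a (Ly6g6d 0.63, Kctd11 0.59, S100a3 0.59) and Camp (Cyp2e1 0.50, Alpl 0.47, Prss12 0.47). Defb3 had too few UMIs. Clusters share libraries and depth, so these values are a description.

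The wider set of antimicrobial genes was mixed in keratinocytes. Of 22 other antimicrobial genes with enough UMIs in KER-like cells, UV over CON was at least 2-fold higher in 5 and lower in 5, beside 9.26% and 3.62% of all genes tested, with a median log2 ratio of −0.24 against 0.00 for all genes. Adm (1.15), Rarres2 (1.18), Wfdc12 (1.36) and Ngp (1.45) were among the higher. Defb8 (−9.43), the protease inhibitor Wfdc5 (−3.18), Lyz1 (−2.27) and the peptidoglycan receptor Pglyrp4 (−1.39) were among the lower. Lyz1 had only 43 UMIs in CON and 5 in UV. Its 0.477 and 0.0910 CPM lay below the 0.895 and 0.197 of FB-like cells. Ngp had 13 and 22 UMIs. Its 0.144 and 0.401 CPM lay between FB-like cells (0.0389 and 0.222) and the unnamed clusters (0.537 and 0.674). The source of the UMIs of both genes in KER-like cells was not tested. In Rux over UV, 0 of 20 were higher and 2 were lower (beside 2.69% and 5.23%), the iron hormone gene Hamp (−1.86) and Pglyrp2 (−1.29), with a median of 0.35. In NEU-like cells 0 of 3 differed in UV over CON, and in Rux over UV 2 of 8 were higher and 2 lower, beside 15.5% and 14.7%. Of the 2 higher, Ngp had 0 UMIs in UV and reached the minimum through Rux alone.

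Genes of neutrophil granules were also read in the neutrophils. In NEU-like cells Rux over UV, 4 of 6 granule genes were at least 2-fold higher and none was lower, beside 15.5% and 14.7% of all genes tested. They were Ngp with 106 UMIs against 0, Mmp8 (log2 1.66, 0.31 to 4.17, 191 against 3), Chil3 (1.38, −0.57 to 7.28, 67 against 1) and the siderophore binder Lcn2 (1.34, 0.91 to 1.83, 1859 against 42). The median was 1.36 against −0.17 for all genes tested. Ngp, Mmp8 and Chil3 reached the minimum only through Rux, where the class had 765355 UMIs against 44232 in UV. At such depths a gene with 0 in UV is always past 2-fold, so the call of Ngp shows no difference. The count and the median rest in part on these 3 genes. MYE-like cells had the same count in Rux over UV, with 4 of 6 higher (beside 3.39% of 10341 genes), 1 lower (beside 6.22%) and a median of 1.23. Lcn2 (1.56, 73 against 12 UMIs), Prtn3 (1.28, 65 against 13), Chil3 (1.27) and Mmp8 (1.19) were the higher and Mmp9 (−1.90) the lower. Lcn2 stood at 5.86 and 17.9 CPM in MYE-like cells of UV and Rux, below the 23.4 and 64.5 CPM of FB-like cells. The source of its UMIs in MYE-like cells was not tested. In UV over CON 0 of 5 granule genes were higher or lower in MYE-like cells (beside 2.53% and 5.58% of 9713 genes). In NEU-like cells UV over CON, 0 of 4 were higher and 2 were lower (beside 6.53% and 10.9%), Mmp8 (−1.59, 3 against 30 UMIs) and Olfm4 (−1.35, 2 against 18). Of 3 receptors of antimicrobial proteins tested in these cells, 2 were higher in Rux over UV (beside 15.5%). They were the formyl peptide receptors Fpr1 (1.02, 684 against 19 UMIs) and Fpr2 (1.40, 250 against 5). In KER-like cells 3 of 7 granule genes were higher in UV over CON (beside 9.26%), led by Padi4 (3.30), and 2 in Rux over UV (beside 2.69%), Mmp9 (4.24) and Chil3 (1.89).

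Among the cytokines and receptors that are known to induce these genes, 4 of 17 in KER-like cells were at least 2-fold higher in UV over CON and none was lower, beside 9.26% and 3.62% of all genes tested. They were Tlr2 (1.41), Tlr4 (1.41, 65 against 40 UMIs), Il17f (1.40, 34 against 21) and Il1a (1.00). Il17f stood at only 0.233 and 0.619 CPM in KER-like cells of CON and UV. It had 0.156 and 0.148 CPM in FB-like cells and 1.13 and 1.38 in the lymphatic endothelial class. The source of its UMIs in KER-like cells was not tested. In Rux over UV only Il6 (−1.11) of 17 was 2-fold apart, beside 5.23% of genes lower. In LYM-like cells, the lymphocytes, Il17a had 315, 173 and 42.3 CPM in CON, UV and Rux and Il17f 82.7, 38.9 and 14.1, and Il22 had 10, 1 and 0 UMIs, so CON was the highest library for all 3. In NEU-like cells 2 of 7 were higher in UV over CON (beside 6.53%), Il1a (1.26, 23 against 28 UMIs) and Tnf (1.22, 24 against 30), and 1 of 11 in Rux over UV (beside 15.5%), Il1r1 with 24 UMIs against 0. The class had 765355 UMIs in Rux and 44232 in UV. At such depths a gene with 0 in UV that reaches the minimum through Rux is always past 2-fold, so this call shows no difference.

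Of 15 transcription factors and other regulators of antimicrobial genes in KER-like cells, UV over CON was at least 2-fold higher in 1, Cebpe (1.42, 15 against 9 UMIs), and lower in 1, Cyp27b1 (−2.23), the enzyme that activates vitamin D, beside 9.26% and 3.62% of all genes tested. In Rux over UV only Irf1 (−1.18), an interferon-responsive factor downstream of JAK-STAT signalling, was 2-fold apart of 14, beside 5.23% of genes lower. Irf1 had 147, 81.7 and 36.1 CPM and Stat3 313, 196 and 122, so both were highest in CON and lowest in Rux. Irf1 (−2.50, −3.36 to −1.48) and Cebpd (−1.10, −2.09 to 0.24) were also the 2 of 9 that were lower in NEU-like cells of Rux over UV, beside 14.7% of genes. The UV side held 14 and 8 UMIs, and the interval of Cebpd held 0.

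Genes of the epidermal surface that act with defensins were read in KER-like cells against the same shares, 9.26% of all genes tested higher and 3.62% lower in UV over CON, and 2.69% and 5.23% in Rux over UV. Of 8 epidermal proteases and inhibitors, 3 were at least 2-fold lower in UV over CON and none higher: the kallikreins Klk5 (−2.17) and Klk7 (−1.02) and their inhibitor Spink5 (−2.08). None was 2-fold apart in Rux over UV. The KER-like sums of this and the other lists were not standardised to a common cluster mix. Cluster 12 (Krt1, Krt10) had 722 cells in CON and 27 in UV. In these sums the mix of clusters and the level per cell cannot be told apart. Of 8 stress keratinocyte genes 3 were higher in UV over CON, Krt6b (7.63, 786 against 6 UMIs), Sprr2h (1.58) and Krt6a (1.50), and 1 was lower, Sprr2d (−1.38). In Rux over UV, Sprr2d (2.76) and Sprr1b (1.37) were higher. Of 10 S100 relatives S100b (2.08) was higher in UV and S100a3 (2.29), a hair cuticle gene, in Rux, and of the receptors of antimicrobial proteins Mrgprb2 (−2.17, 2 against 18 UMIs), 1 of 6, was lower in UV and the scavenger receptor Cd36 (−2.47), 1 of 4, in Rux. In NEU-like cells S100a14 (−1.25, −2.77 to 1.32) was past 2-fold lower in Rux over UV, 1 of 4 S100 relatives (beside 14.7% of genes). It had 25 UMIs against 3, and its interval held 0. In UV over CON 0 of 1 stress gene and 0 of 7 regulators were 2-fold apart, beside 6.53% of 1363 genes higher and 10.9% lower. Too few were tested for these counts to say anything about the lists. These lists are read by their counts alone.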

How the data were processed

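For each of the 3 libraries the authors deposited a matrix of raw UMI counts per gene and called cell, with no normalization. The submitters' processing notes name Cell Ranger 6.1.2, Seurat 5.3.0 and mm10, whereas the file headers give Cell Ranger 7.0.0. All 3 matrices were used.

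A barcode was kept when it had 200 genes or more and no more than 10% of its UMIs were mitochondrial. The cells with the highest Scrublet scores (Scanpy 1.11.5), 836 to 1161 per library, were removed at a rate that grows with the number of cells. The remaining cells were log-normalized and clustered together with Seurat 5.3.0 under R 4.3.3, on 30 principal components of 2000 variable genes, from which the 10 members were left out, at resolution 1.5 and without batch correction. A cluster was named when at least 3 markers of a class were each found in at least 10% of its cells and the class scored at least 0.5. The class also had to lead the next, red blood cells aside, by at least 0.5. In cluster 24 keratinocytes scored 1.11 and red blood cells 0.81. Clusters whose top genes held more markers of another class, or shallow ones with none of their own, were left unnamed. In all, 4 clusters stayed unnamed. UMIs were summed per class, cluster and library, and 0.5 UMI was added to each sum for log2 ratios. For shares at equal depth, cells were thinned to 2000 UMIs, and shallower cells were left out. No count model was fitted, because each condition had 1 library. Python 3.11.15, NumPy 2.4.6, pandas 2.3.3, SciPy 1.17.1 and Matplotlib 3.10.9 were used. The 2-fold calls and the Poisson intervals of levels were tried on simulated Poisson counts, which lack the uneven single cells of these data. The intervals of ratios and shares were not tried in this way.

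All members were named. Of the other lists every gene found by its symbol and with at least 20 UMIs was counted, and at most the 4 highest and 4 lowest were named per list and comparison. Of the 23 genes listed as inducers and their receptors, 20 were found by symbol, and those not found were not read. The 3 genes most like a member were named for members with at least 100 UMIs, among genes that reached 50 CPM in a cluster. The members, lists and tests were chosen with earlier results of these data known, so they are not independent evidence. Gene coordinates came from GENCODE M21 (GRCm38) and start windows from RefSeq (GRCm38.p6). Protein sequences were not used here.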

Additional observations from a re-analysis of the deposited data

How the results depend on the processing

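No paired analysis was possible because each condition had 1 library, and leaving out a replicate was not possible for the same reason. Of 372 log2 ratios of members recomputed under other cell filters, clusterings, scalings and minimum counts, 301 stayed within the counting interval of the reported value and 71 did not. No ratio past 2-fold changed sign. The smaller ratios of S100a8, S100a9 and S100a7a in KER-like cells and of Defb6 in NEU-like cells each changed sign under 1 alternative, and the cause was not tested.

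In KER-like cells Rux over UV, the 5 members 2-fold apart became 3 with a minimum of 100 UMIs, because Defb3 and Camp were no longer counted. In NEU-like cells Rux over UV, where none was 2-fold apart, 1 was with the stricter filter of 500 genes and 5% mitochondrial UMIs (Camp), 2 without doublet removal (S100a9 and Camp), and, in an alternative chosen after seeing the data, 1 without the 3 highest cells per library (Defb6). The 2 UV over CON counts stayed within 1.5 times. Single ratios moved more: Defb3 in KER-like cells UV over CON ranged from −1.93 to −0.26, Camp in Rux over UV from −1.20 to −0.02, Lyz2 from 0.58 to 1.71, and S100a8 in UV over CON from −0.55 to 1.28, the highest with the cluster mix of CON, also chosen afterwards. Depth limits Defb3, Defb14 and Camp in every class and all members but S100a8, S100a9 and Slpi in the 22 UV cells of the NEU-like class.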

Other observations

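Defb8, a beta-defensin 150.5 kb beyond Defb3 (chr8:19445769-19447606, minus strand), was not among the 10 genes and differed more between libraries than any of them in KER-like cells (log2 of UV over CON −9.43, −10.50 to −8.65). It had 13012 UMIs (144 CPM) in CON, 11 in UV (0.200 CPM) and 0 in Rux. Cluster 41, with sebaceous markers and led by Elovl4 and Scd1, held 12612 of the CON UMIs in 53 cells, or 5857 CPM (5755 to 5960), with up to 1945 in a cell and a UMI in 43 cells. The 31 UV cells of the cluster had 7 UMIs (4.60 CPM, 1.85 to 9.49), and Rux had 1 cell there, with none. In the other sebaceous cluster, cluster 40, the counts were 28, 1 and 0 UMIs in 54, 61 and 15 cells, and FB-like cells had 230, 1 and 1 (8.95, 0.0247 and 0.0173 CPM). With 1 library per condition, the condition and the library cannot be told apart.

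Camp had 85 UMIs in a single Rux cell of the FB-like cluster 2, 12 in a single UV cell of the FB-like cluster 1, and 137 in a single Rux barcode of the NEU-like class that was counted only with doublets kept or the stricter filter. Of all its UMIs in the cells kept, 11.6% lay in cluster 17. Defb14 was also carried by few cells, with 34 UMIs in a single Rux cell of cluster 12.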
